A study of Mus musculus with 6 samples.

Results

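The glycolysis and glucose uptake genes were a list of 32 gene symbols, matched to the table by name. They covered the glucose transporters, the enzymes from hexokinase to lactate dehydrogenase, the regulators of phosphofructokinase, the lactate transporters, and pyruvate dehydrogenase with its kinases. They matched 33 of the 54532 rows of the count table, because Aldoa was listed under another identifier as well (ENSMUSG00000114515, with 799 bases of exon). After the filter on low counts 30 of these rows were among the 13352 genes tested. Eno2, Ldhb and Tigar did not pass it, with at most 3, 4 and 19 counts in any library.

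Glycolysis turns glucose into pyruvate in the cytosol and yields ATP without oxygen. Lactate dehydrogenase then regenerates the NAD+ that the pathway uses, and monocarboxylate transporters carry the lactate out, while pyruvate dehydrogenase sends pyruvate into the mitochondria unless its kinases switch it off. Many of these genes are known targets of the hypoxia-inducible factors and of MYC. In the bone marrow, glycolysis is known for its use by blood stem cells and by leukemia cells in regions of low oxygen.

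Leukemia cells of AE9a mice on the C57BL/6 background were profiled by RNA-seq, a model in which c-Kit+ stem and progenitor cells had been infected with a retrovirus carrying AML1-ETO9a, a spliced form of the fusion gene of t(8;21) leukemia. All libraries carried this transgene, all cells came from the third generation of transplanted recipients, and no drug or other genotype was used. The 3 central bone marrow (CBM) libraries came from cells flushed out of the long bones, and the 3 endosteal bone marrow (EBM) libraries came from cells that collagenase released from the flushed bone. The comparison asks whether leukemia cells near the bone surface differ from those of the central marrow. CBM cells were not digested, so region and digestion cannot be told apart. The labels give no ages and do not state whether libraries with the same number came from the same mouse, and the cells were kept in culture medium with serum before and after sorting. In such bulk samples fewer cells of a type and less RNA per cell cannot be told apart.

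Between 16436526 and 19462964 counts fell on genes in each library. Levels are given below as CPM, the counts scaled to library size with TMM factors, always in the order of replicates 1, 2 and 3. Gene positions are those of the table, on the build GRCm38 (mm10). Among 8 markers of progenitors and the leukemia, Kit (196 to 239 CPM), Runx1 (330 to 722 CPM), Myb (268 to 352 CPM) and Spi1 (68.4 to 106 CPM) were well expressed, while the myeloid genes Mpo (1.65 to 35.8 CPM) and Cebpa (at most 0.684 CPM) and the pan-leukocyte gene Ptprc (at most 3.58 CPM) were low. Cd34 measured 15.4, 1.16 and 4.86 CPM in CBM and 16.4, 10.5 and 1.22 CPM in EBM, and like Kit and Runx1 it was lowest in CBM replicate 2 and EBM replicate 3. On the 1st principal component of all tested genes outside the list, which held 56% of the variance, CBM replicate 2 (-37.9) and EBM replicate 3 (-38.4) lay at one end, CBM replicate 1 (32.9) and EBM replicate 1 (31.7) at the other, and CBM replicate 3 (-5.19) and EBM replicate 2 (16.8) between them. The regions separated on the 2nd component (19% of the variance), with CBM at 6.67 to 24.2 and EBM at -17.5 to -15.5. For the genes the text turns on, fold changes are therefore also given without CBM replicate 2 and EBM replicate 3. This alternative leaves 2 libraries per region and was chosen after the data were seen, so its p-values are only a description.

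None of the glycolysis genes differed between EBM and CBM beyond the spread of the replicates. By edgeR's quasi-likelihood test 0 of 30 had an adjusted p under 0.05, as for 0.0% of all genes tested, and at an unadjusted p under 0.05 there were also 0 of 30, against 7.91% of all genes. DESeq2 and limma-voom also gave 0 listed genes at an adjusted p under 0.05. The CBM and EBM libraries overlapped for all 30, whereas they did not overlap for 15.1% of all genes. The 17 rows for the enzymes from hexokinase to pyruvate kinase summed to 8031, 4729 and 7510 CPM in CBM (mean 6757 ± 1775, SD, n = 3) and to 8679, 7789 and 6022 CPM in EBM (7497 ± 1352, SD, n = 3). The sum was 0.15 higher in EBM on the log2 scale, which is smaller than the spread of either group. Over the 30 rows the median log2 fold change, EBM over CBM, was 0.08, with 19 above and 11 below 0. For all genes the median was 0.0017, with 6726 above and 6626 below 0. Without CBM replicate 2 and EBM replicate 3 the median of the 31 rows then tested was 0.0763, and 2 of them (Hk3 and Pfkp) had an unadjusted p under 0.05 in edgeR's fit but no adjusted p under 0.05.

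**Figure D1:**
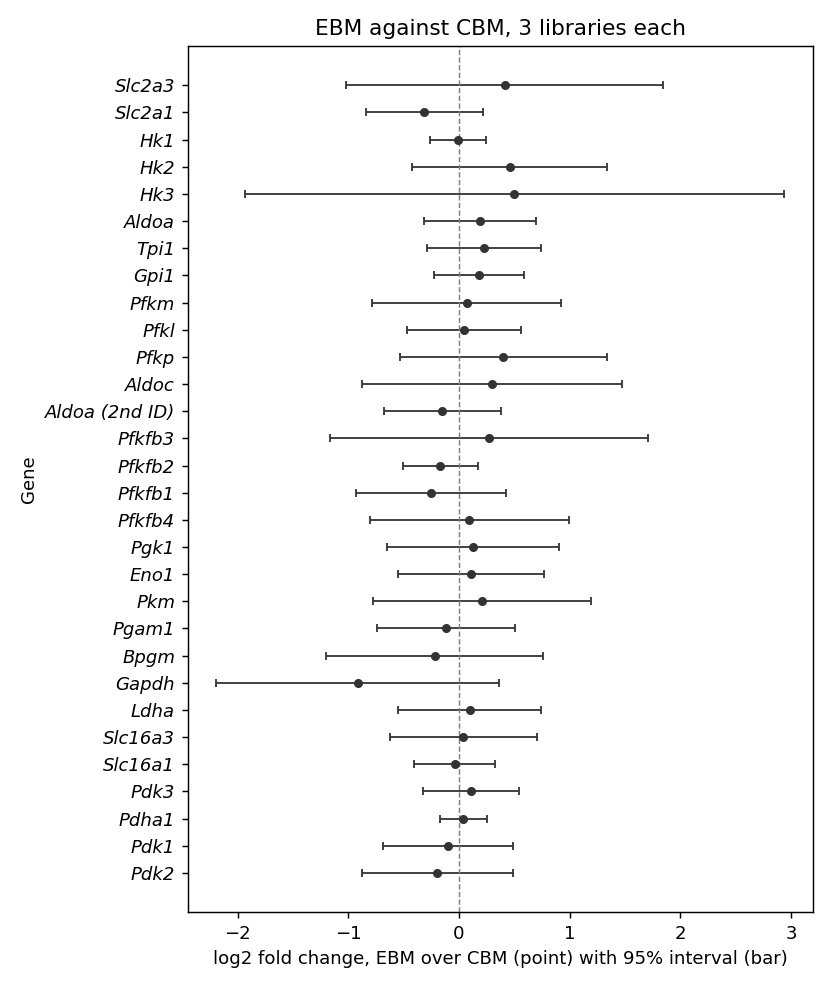
Fitted log2 fold change of each of the 30 tested rows, EBM over CBM (point), with its 95% interval (bar), ordered by step of the pathway. All intervals cross 0, and they are widest for Hk3, Slc2a3, Pfkfb3 and Gapdh, whose levels varied most between libraries.

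The levels instead followed the libraries across both regions. For 17 of the 30 rows (56.7%) CBM replicate 2 and EBM replicate 3 were the 2 lowest of the 6 libraries, which was so for 16.7% of all genes. These 17 were Slc2a3, Hk2, Gpi1, Pfkl, Pfkp, Aldoa, Aldoc, Tpi1, Pgk1, Pgam1, Eno1, Pkm, Ldha, Slc16a3, Pfkfb3, Pdk1 and Pdk3. The same libraries were the 2 highest for Pfkm, Bpgm, Slc16a1 and Pdk2, 4 of 30 (13.3%) against 15.6% of all genes. Among genes with a mean of at least 10 CPM, the 2 lowest positions were theirs for 17 of 26 rows of the list (65.4%) and for 15.9% of 8735 genes. The highest library of a listed gene was a median of 2.08 times its lowest, against 1.55 times over all genes. The pair of libraries was picked after the data were seen, so these shares are a description and carry no test.

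**Figure D2:**
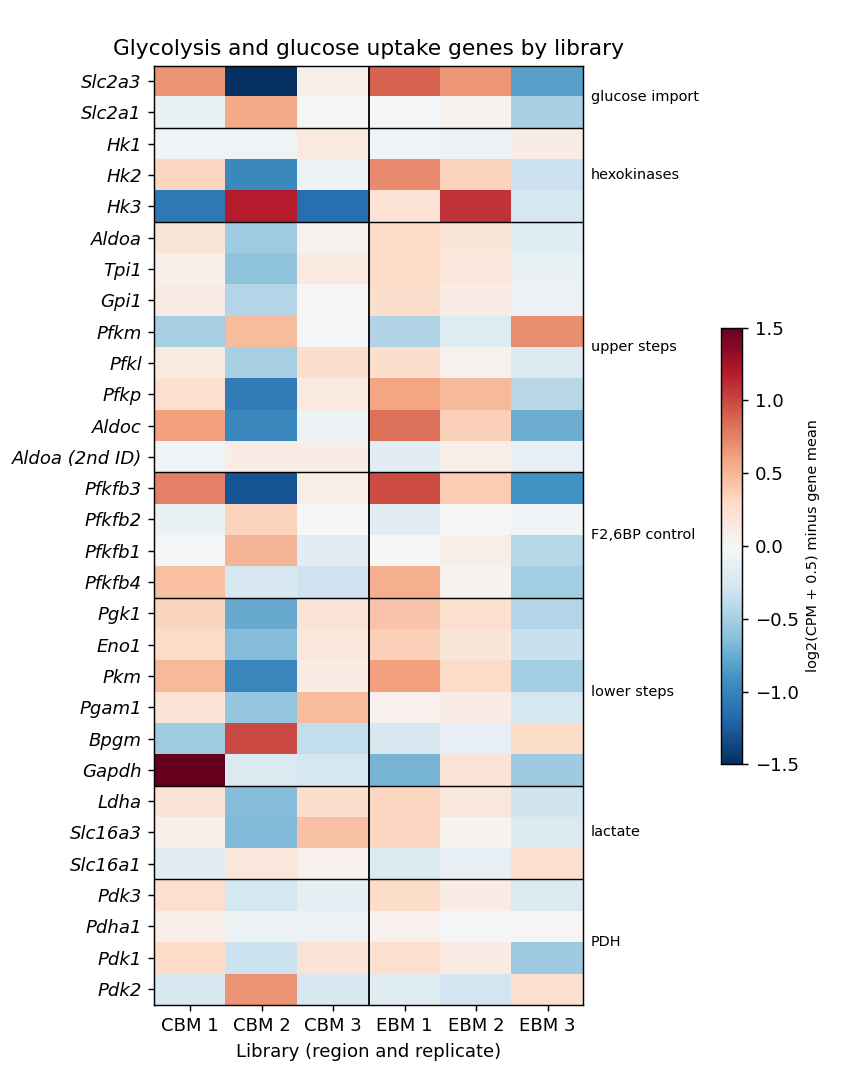
Level of the 30 tested rows in each library, as log2(CPM + 0.5) minus the mean of the gene over the 6 libraries, with colours capped at -1.5 and 1.5 and rows grouped by step. Most rows are blue in CBM replicate 2 and EBM replicate 3 and red in CBM replicate 1 and EBM replicate 1, while Pfkm, Bpgm, Pdk2 and Slc16a1 show the reverse and Gapdh is high in CBM replicate 1 alone.

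Most erythroid markers moved with the same libraries. The 8 erythroid markers that were matched summed to 2390, 7880 and 3360 CPM in CBM and 2970, 4290 and 6060 CPM in EBM, and for 6 of 8 CBM replicate 2 and EBM replicate 3 were the 2 highest. The others, Hbb-bs and Hbb-bt, were highest in CBM replicate 2 and EBM replicate 2. Hbb-bs measured 1120, 1430 and 808 CPM in CBM and 1280, 1340 and 807 CPM in EBM, so it was lowest in EBM replicate 3. Neutrophil markers summed to 8.31, 253 and 3.82 CPM in CBM and 53.9, 179 and 37.8 CPM in EBM, so they were high in CBM replicate 2 and EBM replicate 2. Summed levels of the other marker lists were small: 1.37 to 4.05 CPM for macrophages, 7.0 to 14.6 CPM for B cells, at most 1.0 CPM for T and NK cells, 0.347 to 1.39 CPM for osteoblasts and stromal cells with Sp7 and Alpl at 0, 0.964 to 3.47 CPM for endothelial cells and 7.07 to 28.5 CPM for megakaryocytes and platelets. The part of these cell types in the levels of the glycolysis genes was not tested.

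The glucose carriers of the list were Slc2a1 (GLUT1), the widely expressed basal carrier, and Slc2a3 (GLUT3), a carrier of high affinity. Outside the list, Slc2a8 lay between 35.6 and 79.2 CPM and Slc2a9 between 35.0 and 48.4 CPM. Uptake itself was not measured. Slc2a3 (ENSMUSG00000003153, chr6:122727809-122801640) measured 608, 136 and 405 CPM in CBM and 706, 606 and 217 CPM in EBM. It was lowest in CBM replicate 2 and EBM replicate 3 and overlapped between the regions, with a log2 fold change of 0.41 (SE 0.60, edgeR adjusted p = 0.954) that was 0.37 (SE 0.21) without these libraries. Slc2a1 (ENSMUSG00000028645, chr4:119108711-119137983) measured 176, 281 and 186 CPM in CBM and 186, 196 and 135 CPM in EBM. Here CBM replicate 2 was the highest library and EBM replicate 3 the lowest, and the log2 fold change was -0.31 (SE 0.22, edgeR adjusted p = 0.810), which became 0.08 without both of these libraries and stayed below 0 without either alone. Per kilobase of exon the ratio of Slc2a3 to Slc2a1 was 1.67, 0.234 and 1.05 in CBM and 1.84, 1.49 and 0.778 in EBM. GLUT3 transcripts thus led those of GLUT1 per length in 4 libraries, and GLUT1 led in CBM replicate 2 and EBM replicate 3. In counts not divided by length Slc2a3 held 32.6% of the pair in CBM replicate 2 and 61.6% in EBM replicate 3, so the order in EBM replicate 3 depended on the exon lengths.

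**Figure D3:**
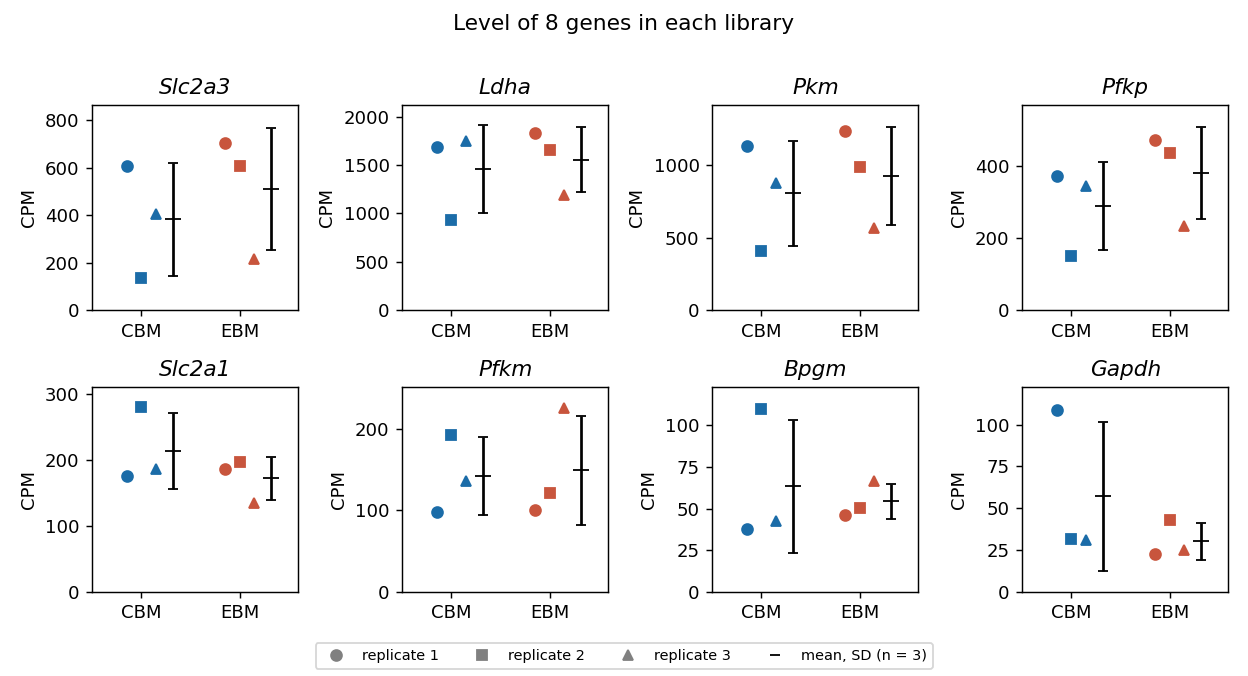
CPM of 8 genes in each CBM (blue) and EBM (red) library, with the replicate number as the marker shape and a black bar for the mean and SD of 3 libraries. The regions overlap in every panel. CBM replicate 2 and EBM replicate 3 are the lowest in Slc2a3, Ldha, Pkm and Pfkp and the highest in Pfkm and Bpgm, and Gapdh reaches 109 CPM in CBM replicate 1.

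The hexokinases trap glucose in the cell as glucose phosphate. Hk1 (ENSMUSG00000037012, chr10:62268855-62379908), the constitutive form, measured 674, 677 and 783 CPM in CBM and 684, 673 and 763 CPM in EBM, and was among the steadiest genes of the list. The antisense gene Hk1os overlaps it by 23112 bases, and whether counting used the strand is not given, so reads of this pair may be mixed. The highest library of Hk1 was 1.16 times its lowest, and the log2 fold change was -0.01 (95% interval -0.26 to 0.24). Hk2 (ENSMUSG00000000628, chr6:82725025-82774454), the form induced by hypoxia and growth signals, measured 84.6, 34.3 and 64.3 CPM in CBM and 111, 86.5 and 54.2 CPM in EBM. Its log2 fold change of 0.46 (SE 0.37, edgeR adjusted p = 0.856) lay within the spread of the libraries, and it was 0.40 (SE 0.18, edgeR unadjusted p = 0.0645, adjusted p = 0.547) without CBM replicate 2 and EBM replicate 3. Per kilobase Hk1 made up 80.9% to 92.4% of the hexokinase signal, and its share was highest in CBM replicate 2 and EBM replicate 3. Hk3, a form known from myeloid cells, had 4, 56 and 4 counts in CBM and 23, 49 and 12 counts in EBM. It was high in the libraries with the highest neutrophil markers. The log2 fold change of Hk3 was 0.50 (SE 1.03), and without CBM replicate 2 it was 2.87 with an unadjusted p under 0.05 (edgeR adjusted p = 0.443).

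Phosphofructokinase commits the sugar to glycolysis, and its subunits are named for liver (Pfkl), muscle (Pfkm) and platelet (Pfkp). Pfkp (ENSMUSG00000021196, chr13:6579768-6648777) measured 371, 149 and 345 CPM in CBM and 471, 436 and 234 CPM in EBM. The log2 fold change was 0.40 (SE 0.39, edgeR adjusted p = 0.901). Without CBM replicate 2 and EBM replicate 3 it was 0.34, with an SE of 0.10, an unadjusted p of 0.0167 and an edgeR adjusted p of 0.343, so it did not pass the threshold there either. These were the 2 lowest libraries of Pfkp, so leaving them out also narrowed its spread. Pfkm (ENSMUSG00000033065, chr15:98092589-98132451) was highest in CBM replicate 2 and EBM replicate 3, with 98.0, 193 and 136 CPM in CBM and 101, 121 and 226 CPM in EBM (log2 fold change 0.07, SE 0.36, edgeR adjusted p = 0.989, and -0.08 without these libraries). Its share of the family per kilobase was 30.7%, 61.6% and 37.5% in CBM and 28.1%, 34.4% and 58.5% in EBM. Pfkp held 29.0%, 11.9% and 23.8% in CBM and 32.8%, 30.9% and 15.1% in EBM, so that the muscle form led per length in CBM replicate 2 and EBM replicate 3. Senp1, on the opposite strand, overlaps Pfkm by 1156 bases, with the same limit. Pfkl lay between 166 and 280 CPM and differed by 0.05 on the log2 scale (SE 0.22). These shares rest on the exon lengths given with the counts. That length was 13401 bases for Pfkp, whose longest protein-coding transcript had 4145, and 3340 for Pfkm, whose longest had 2879. The share of Pfkp per kilobase may therefore be too low. The mean share of Pfkm fell from 41.8% to 21.7% when counts were not divided by length. In counts Pfkm led in CBM replicate 2 (3663, against 2830 for Pfkp) but not in EBM replicate 3 (3512, against 3647).

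Phosphofructokinase is in turn set by the Pfkfb enzymes, which make and remove its activator, a fructose bisphosphate. Pfkfb3 (ENSMUSG00000026773, chr2:11471433-11554077), the form that favours synthesis of this activator, measured 76.1, 18.1 and 47.8 CPM in CBM and 88.9, 58.7 and 23.7 CPM in EBM. Its highest library was 4.92 times its lowest, yet the regions differed by only 0.27 on the log2 scale (SE 0.60, edgeR adjusted p = 0.980) and by 0.25 without the low libraries, CBM replicate 2 and EBM replicate 3. Pfkfb2 lay between 25.5 and 36.1 CPM (log2 fold change -0.17, SE 0.14). Pfkfb3 therefore held 64.0%, 25.4% and 54.1% of the family per kilobase in CBM and 67.6%, 57.9% and 38.5% in EBM. The protein-coding gene Gm29427, on the same strand, overlaps Pfkfb2 by 26618 bases. The antisense gene Gm10851 overlaps Pfkfb3 by 9131 bases, so reads of both rows may be mixed with those of other genes. Pfkfb1 and Pfkfb4 stayed below 6 CPM in every library. Tigar, which removes the same activator, had 10, 4 and 4 counts in CBM and 19, 5 and 6 counts in EBM and did not pass the filter on low counts.

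**Figure D4:**
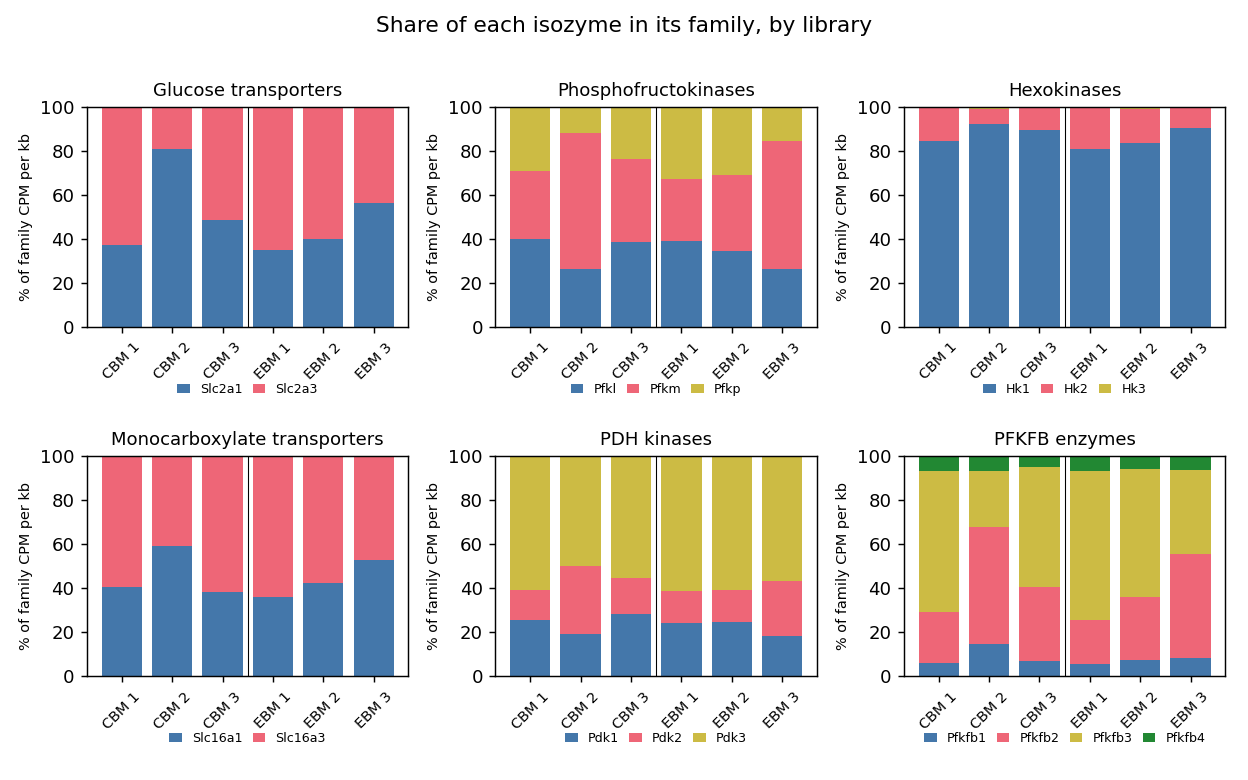
Share of each isozyme in the CPM per kilobase of its family (stacked bars, percent) in each of the 6 libraries, for 6 families of the list. In CBM replicate 2 and EBM replicate 3 the shares of Slc2a1, Pfkm, Hk1, Slc16a1, Pdk2 and Pfkfb2 are at their highest, and in every family the shares of the regions overlap.

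The remaining steps to triose phosphate were carried by abundant, single forms. Gpi1 (phosphoglucose isomerase) lay between 636 and 1035 CPM, with a log2 fold change of 0.18 (SE 0.17, edgeR adjusted p = 0.897). Aldoa (ENSMUSG00000030695, chr7:126795234-126800751), aldolase A, measured 1184, 724 and 1081 CPM in CBM and 1291, 1190 and 922 CPM in EBM, a log2 difference of 0.19 (SE 0.21, edgeR adjusted p = 0.925). Aldoc, the aldolase best known from brain, was far lower at 28.9 to 103 CPM, and Aldoa held 93.4% to 96.8% of the aldolase signal per kilobase. Tpi1 (triose phosphate isomerase) lay between 521 and 982 CPM (log2 fold change 0.23, SE 0.22, edgeR adjusted p = 0.900). The row with the other Aldoa identifier had 32 to 51 counts. Of the 8 rows at these steps, the phosphofructokinases included, 7 lay above 0 in EBM over CBM, against 6726 of all 13352 genes. The smallest unadjusted p was 0.32 (edgeR). For 6 of the 8, CBM replicate 2 and EBM replicate 3 were the 2 lowest libraries. Without CBM replicate 2 the log2 fold changes were 0.0025 for Aldoa, 0.025 for Tpi1, 0.035 for Gpi1 and 0.089 for Pfkp. They were 0.35 for Pfkm, -0.023 for Aldoc, -0.15 for Pfkl and -0.12 for the other Aldoa row. Without both CBM replicate 2 and EBM replicate 3 they were 0.13 for Aldoa, 0.13 for Tpi1, 0.12 for Gpi1 and 0.34 for Pfkp. Pfkl and Pfkm were below 0 there. Without EBM replicate 3 alone they were 0.31 for Aldoa, 0.32 for Tpi1, 0.26 for Gpi1 and 0.64 for Pfkp, but -0.37 for Pfkm.

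In the lower steps of the pathway, where ATP is made, the same libraries were low. Pgk1 (ENSMUSG00000062070, chrX:106187100-106203699), phosphoglycerate kinase, measured 688, 324 and 628 CPM in CBM and 736, 646 and 405 CPM in EBM (log2 fold change 0.12, SE 0.33, edgeR adjusted p = 0.983). Eno1 (ENSMUSG00000063524, chr4:150236721-150248879), enolase, measured 1410, 740 and 1296 CPM in CBM and 1485, 1315 and 923 CPM in EBM (log2 fold change 0.11, SE 0.28, edgeR adjusted p = 0.983), while the neuronal enolase Eno2 had 3 counts at most. Pkm (ENSMUSG00000032294, chr9:59656368-59679375), pyruvate kinase M, measured 1131, 410 and 877 CPM in CBM and 1236, 985 and 566 CPM in EBM, a difference of 0.21 on the log2 scale (SE 0.41, edgeR adjusted p = 0.977). Gene counts do not separate its spliced forms M1 and M2. Pklr, the pyruvate kinase of liver and red cells, was in the reverse order of libraries to Pkm, at 89.6, 238 and 154 CPM in CBM and 88.3, 110 and 207 CPM in EBM. Without CBM replicate 2 and EBM replicate 3 the log2 fold changes were 0.07 for Pgk1, 0.05 for Eno1 and 0.14 for Pkm. Per kilobase the ratio of Pkm to Pklr was 8.17, 1.11 and 3.69 in CBM and 9.06, 5.78 and 1.77 in EBM. Pgam1 (phosphoglycerate mutase) lay between 89.1 and 186 CPM (log2 fold change -0.12, SE 0.26).

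Bpgm (ENSMUSG00000038871, chr6:34476207-34505613), the mutase whose product lowers the oxygen affinity of haemoglobin in red cells, measured 37.8, 110 and 42.6 CPM in CBM and 46.5, 50.7 and 66.4 CPM in EBM. Like Pfkm and Pdk2 it was highest in CBM replicate 2 and EBM replicate 3, the libraries with the highest erythroid sums. The log2 fold change was -0.22 (SE 0.41, edgeR adjusted p = 0.976) with all libraries and 0.44 without CBM replicate 2 alone, while it was -0.39 without EBM replicate 3 alone and 0.27 without both. Its direction therefore turned on CBM replicate 2.

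Gapdh (ENSMUSG00000057666, chr6:125161715-125166467), the dehydrogenase of this pathway and the reference gene of the study's qRT-PCR, was unusual in level. It measured 109, 31.9 and 30.8 CPM in CBM and 22.7, 42.9 and 25.3 CPM in EBM. Per kilobase its mean of 10.6 CPM was far below the 255 of Pgk1 and 294 of Tpi1, the neighbouring steps. Only CBM replicate 1 stood high, and the log2 fold change of -0.91 (SE 0.54, edgeR unadjusted p = 0.134, adjusted p = 0.740) was -0.05 without that library. Of the 100-base windows of the Gapdh transcript 78.0% were found exactly in transcripts of 84 other genes, 79 of them processed pseudogenes, whose rows held 1028 to 1824 counts per library against 393 to 1910 for Gapdh itself. The counting of reads that match several genes is not given in the sources used here, so the Gapdh row is uncertain. When levels were scaled to Gapdh in place of the library size, the median log2 fold change of the list became 0.788, beside 0.707 for all genes. Then 29 of 30 rows lay above 0, and the remaining row was Gapdh itself, fixed at 0 by the scaling. Gapdh had the lowest log2 fold change of the list, so this count follows from the scaling and says nothing about the other rows. The same search found 67.0% of windows shared for Pgk1, 59.0% for Eno1 and 39.7% for Pgam1.

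Ldha (ENSMUSG00000063229, chr7:46841475-46855627), the lactate dehydrogenase subunit that favours lactate, was the most abundant gene of the list per kilobase (mean 456 CPM). It measured 1688, 932 and 1753 CPM in CBM and 1832, 1654 and 1187 CPM in EBM, and the 2 low libraries came from different regions. The log2 fold change was 0.10 (95% interval -0.55 to 0.74, edgeR adjusted p = 0.983), and 0.02 without those libraries. Ldhb, the heart subunit, had 0, 0 and 1 counts in CBM and 4, 1 and 1 counts in EBM. The transcripts for lactate dehydrogenase in these cells were thus nearly all Ldha in every library.

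The lactate carriers of the list were Slc16a3 (MCT4), a carrier suited to export, and Slc16a1 (MCT1), which works in both directions. Slc16a3 (ENSMUSG00000025161, chr11:120948480-120960868) measured 185, 111 and 238 CPM in CBM and 219, 180 and 151 CPM in EBM (log2 fold change 0.04, SE 0.28, edgeR adjusted p = 0.992). Slc16a1 measured 107, 134 and 124 CPM in CBM and 103, 109 and 142 CPM in EBM (log2 fold change -0.04, SE 0.15, edgeR adjusted p = 0.988). Slc16a1 was highest in the libraries where Slc16a3 was lowest, and without them the log2 fold changes were -0.09 for Slc16a3 and -0.12 for Slc16a1. The ratio of Slc16a3 to Slc16a1 per kilobase was below 1 only in CBM replicate 2 (0.691) and EBM replicate 3 (0.887), although in counts Slc16a3 still led in EBM replicate 3 (2352 against 2208).

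At the gate to the mitochondria Pdha1, the catalytic subunit of pyruvate dehydrogenase, was the steadiest gene of the list. It lay between 65.6 and 73.5 CPM, its highest library was 1.12 times its lowest, and the 95% interval of the log2 fold change was -0.17 to 0.25. Among the kinases that switch the enzyme off, Pdk3 (ENSMUSG00000035232, chrX:93764607-93832201) led per kilobase and measured 113, 79.0 and 85.8 CPM in CBM and 116, 103 and 81.5 CPM in EBM (log2 fold change 0.11, SE 0.18, edgeR adjusted p = 0.971). Pdk1, a known hypoxia target, measured 144, 92.9 and 134 CPM in CBM and 139, 126 and 79.5 CPM in EBM (log2 fold change -0.10, SE 0.25, edgeR adjusted p = 0.982). Without CBM replicate 2 and EBM replicate 3 these differences were 0.13 for Pdk3 and -0.07 for Pdk1. Pdk2 was highest in those libraries, at 32.0, 60.2 and 32.0 CPM in CBM and 33.1, 30.6 and 44.7 CPM in EBM, and its share of the kinases per kilobase was 30.8% in CBM replicate 2 and 25.1% in EBM replicate 3 but 13.9% to 16.6% in the other 4 libraries.

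Promoters are shown for 4 genes that were low in CBM replicate 2 and EBM replicate 3 (Ldha, Pgk1, Hk2 and Tpi1) and for 2 that were high there (Slc16a1 and Bpgm), picked so that both sets include windows with and without the letters searched. Each window runs 5′ to 3′ on the strand of the gene, from 250 bases before to 50 bases after a RefSeq start (GRCm38.p6), and capitals mark ACGTG or its reverse complement CACGT, the core letters known for the hypoxia-inducible factors. The palindrome CACGTG, the E-box known for MYC, contains ACGTG on both strands and counts as a match on each.
Ldha, chr7:46845554-46845853, plus strand: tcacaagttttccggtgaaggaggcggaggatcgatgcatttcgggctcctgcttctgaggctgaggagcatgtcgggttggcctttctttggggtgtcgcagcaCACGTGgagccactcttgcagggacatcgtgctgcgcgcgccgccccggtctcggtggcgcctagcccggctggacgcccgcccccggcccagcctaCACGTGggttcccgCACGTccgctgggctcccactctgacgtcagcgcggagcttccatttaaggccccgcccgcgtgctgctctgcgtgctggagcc
Pgk1, chrX:106186850-106187149, plus strand: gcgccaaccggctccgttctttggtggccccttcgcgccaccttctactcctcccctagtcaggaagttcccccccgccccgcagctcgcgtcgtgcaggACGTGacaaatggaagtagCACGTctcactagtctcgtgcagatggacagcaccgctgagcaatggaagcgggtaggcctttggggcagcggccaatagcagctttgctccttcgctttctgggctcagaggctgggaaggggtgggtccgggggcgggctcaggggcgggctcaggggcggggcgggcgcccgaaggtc
Hk2, chr6:82774405-82774704, minus strand: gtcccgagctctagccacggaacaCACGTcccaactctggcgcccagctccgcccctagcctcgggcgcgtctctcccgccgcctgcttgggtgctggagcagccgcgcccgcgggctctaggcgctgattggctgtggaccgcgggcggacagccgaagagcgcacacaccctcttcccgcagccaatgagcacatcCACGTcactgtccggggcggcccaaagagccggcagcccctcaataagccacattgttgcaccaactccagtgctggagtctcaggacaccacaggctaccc
Tpi1, chr6:124814109-124814408, minus strand: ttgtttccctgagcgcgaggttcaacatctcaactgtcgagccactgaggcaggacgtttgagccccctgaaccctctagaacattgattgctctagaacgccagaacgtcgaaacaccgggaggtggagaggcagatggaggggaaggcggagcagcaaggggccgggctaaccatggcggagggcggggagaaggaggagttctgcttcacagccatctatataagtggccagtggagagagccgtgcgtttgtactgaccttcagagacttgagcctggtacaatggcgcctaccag
Slc16a1, chr3:104638414-104638713, plus strand: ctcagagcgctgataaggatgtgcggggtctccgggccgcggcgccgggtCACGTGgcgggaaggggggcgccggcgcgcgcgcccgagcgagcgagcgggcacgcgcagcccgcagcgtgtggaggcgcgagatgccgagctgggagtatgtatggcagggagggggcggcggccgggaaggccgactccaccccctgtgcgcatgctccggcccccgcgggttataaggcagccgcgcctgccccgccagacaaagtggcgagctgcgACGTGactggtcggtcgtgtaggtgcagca
Bpgm, chr6:34476106-34476405, plus strand: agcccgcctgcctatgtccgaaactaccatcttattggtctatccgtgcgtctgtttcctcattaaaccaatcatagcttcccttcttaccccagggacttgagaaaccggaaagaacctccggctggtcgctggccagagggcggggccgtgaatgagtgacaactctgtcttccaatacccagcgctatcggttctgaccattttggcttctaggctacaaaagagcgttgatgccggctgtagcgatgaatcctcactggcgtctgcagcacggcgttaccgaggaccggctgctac

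The printed Ldha window held 5 ACGTG matches over both strands and 2 CACGTG palindromes, while the other RefSeq window of Ldha held 0 of either. The Pgk1 and Hk2 windows held 2 ACGTG matches each and the Tpi1 window 0. Of the genes that were high, Slc16a1 held 3 with 1 palindrome and Bpgm 0, and windows of Pfkm and Pdk2 held up to 3 and 2. Over the list, 31 genes had RefSeq windows, and 22 of their 50 windows (44.0%) held ACGTG, against 19.6% of all 32851 windows and 25.9% of the 11529 windows of the genes tested. CACGTG was in 12.0% of the windows of the list, against 7.15% and 10.1%. ACGTG was in 48.0% of the windows of the 17 rows that were lowest in CBM replicate 2 and EBM replicate 3, as far as these had windows. It was in 40.0% of the windows of the rest. The rest includes Eno2, Ldhb and Tigar, which were not tested and whose windows held 0 matches. Windows of the same gene can overlap, as for Aldoa, so a match can be counted again. The match describes letters in these windows and was not linked to binding.

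Few genes around the pathway reached an unadjusted p under 0.05 between regions, which does not show that their levels were equal. Of the other isozymes and carriers of the same steps 12 of 26 were tested, of which 0 reached an unadjusted p of 0.05 (edgeR). The 1 gene of the pentose phosphate pathway to reach it, of 9, was H6pd (log2 fold change -0.28, unadjusted p = 0.0368, adjusted p = 0.596, edgeR). No gene reached it among 9 for the entry of pyruvate into mitochondria, 20 for glycogen and hexose interconversion, 3 of 7 tested for gluconeogenesis or 7 of 10 tested for glucose sensing. In these lists the regions did not overlap for Eno3, Mpc1 and Pdhb, higher in EBM, and H6pd, lower in EBM. They did not overlap for 15.1% of all genes. Of 15 tested targets of the hypoxia-inducible factors outside glycolysis, the mTOR inhibitor Ddit4 was higher (log2 fold change 0.57, unadjusted p = 0.00332) and Ankrd37 lower (-0.52, unadjusted p = 0.0464), and neither passed adjustment (edgeR adjusted p = 0.304 and 0.621). Vegfa, which encodes an angiogenic growth factor, measured 55.0, 11.3 and 29.0 CPM in CBM and 56.0, 42.0 and 9.32 CPM in EBM, and like Slc2a3 it was lowest in CBM replicate 2 and EBM replicate 3. CBM replicate 2 and EBM replicate 3 were the 2 lowest libraries for 8 of these 15 targets and for 10 of the 20 glycogen and hexose genes, against 16.7% of all genes. The same held for 2 of the 9 pentose phosphate genes and 2 of the 9 for pyruvate entry. It also held for 4 of 12 other isozymes, 2 of 3 genes of gluconeogenesis and 1 of 7 of glucose sensing. Among 15 genes of the response to dissociation 4 had an unadjusted p under 0.05, against 7.91% of all genes. Hspa1a (log2 fold change 4.40), Hspa1b (3.74) and Nfkbia (0.76) were higher in EBM and Dusp1 lower (-1.13), with adjusted p of 0.108, 0.121, 0.479 and 0.360 in edgeR's test. The part of digestion in the levels of the glycolysis genes was not tested.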

How the data were processed

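RNA was sequenced from 3 CBM and 3 EBM libraries of AE9a leukemia cells. The authors deposited raw counts per gene with gene coordinates and exon lengths. The submitters' processing notes name HISAT2 2.0.5 and the build mm10, while the counting tool, its use of strand and its treatment of reads that match several genes are not given in the sources used here. Of the 33 rows, 20 overlap another gene, 17 of them on the opposite strand.

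Genes were kept by filterByExpr, scaled by TMM and tested with the quasi-likelihood F-test of edgeR 4.0.16 with Benjamini-Hochberg adjustment over 13352 genes at 0.05, without a block. DESeq2 1.42.0 and limma-voom (limma 3.58.1) were alternatives. Intervals of fold changes are at 95%. The fit was tested on simulated data with known changes. Nothing states that the libraries came from separate mice, so p-values measure only the spread between these libraries. Promoter windows are from RefSeq.

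The genes and lists were chosen with earlier results of these data known. Values in every library were to be given for listed genes at an unadjusted p under 0.05 or with groups apart, the leading isozyme of each family and Gapdh, and for other lists up to 2 genes of smallest p. Slc2a1, Hk2, Hk3, Pfkp, Pgk1, Pkm, Bpgm, Slc16a1, Pdk1, Pdk2, Pklr, Vegfa, Tigar and the dissociation genes were added after their values were seen. The values of Cd34, Hbb-bs and Hkdc1 in every library also fall outside that rule.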

Additional observations from a re-analysis of the deposited data

How the results depend on the processing

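No listed gene passed the adjusted threshold under any alternative, and the smallest adjusted p of a listed gene was 0.145 (Hk3, edgeR, without both CBM replicate 2 and EBM replicate 3). The count of all genes past the threshold was 0 in the reported fit, 40 without a filter on low counts, 175 with DESeq2 (24771 genes tested) and 13 without both of these libraries (added after seeing the data). The cause was not tested. Listed genes at an unadjusted p under 0.05 numbered 0 to 1 with each library left out in turn, the 1 being Hk3 without CBM replicate 2, and 2 without both libraries (Hk3 and Pfkp). The median log2 fold change of the list ranged from -0.0575 to 0.225 with each library left out and was 0.788 when scaled to Gapdh, whose own value moves with CBM replicate 1. The mean share of Pfkm was 21.7% and of Pdk3 37.8% (57.4% per kilobase) when counts were not divided by exon length. With the replicate block 0 genes passed the adjusted threshold, 1203 had an unadjusted p under 0.05 against 1056, and the median of the list was 0.0837. Deviations of same-numbered libraries correlated across genes with r of 0.727, -0.24 and 0.197, and CBM replicate 2 correlated best with EBM replicate 3 (0.564), so the numbers were not shown to pair the libraries. Of 456 log2 fold changes of listed genes under alternatives 41 reversed with libraries left out, in 20 genes, and 10 further signs turned from below to above 0 when levels were scaled to Gapdh, where no test was run. With each library left out in turn, log2 fold changes ranged from -0.14 to 0.25 for Ldha, -0.12 to 0.29 for Eno1, -0.11 to 0.53 for Pkm, -0.078 to 0.065 for Hk1, -0.14 to 0.33 for Pgk1, -0.15 to 0.20 for Pfkl, -0.21 to 0.31 for Slc16a3, -0.37 to 0.35 for Pfkm, -0.37 to 0.12 for Pgam1, -0.20 to 0.049 for Slc16a1, -0.27 to 0.093 for Pdk1, -0.011 to 0.28 for Pdk3, -0.20 to 0.79 for Pfkfb3, -0.48 to 0.44 for Bpgm, -0.081 to 0.75 for Aldoc, -0.39 to 0.18 for Pdk2, -0.40 to 0.0049 for Pfkfb1, -0.24 to 0.42 for Pfkfb4 and -0.13 to 2.87 for Hk3. Without both libraries the reversed values were -0.038 for Pfkl, -0.090 for Slc16a3, 0.076 for Slc2a1, -0.076 for Pfkm, 0.27 for Bpgm and 0.16 for Pfkfb1. Eno2 and Ldhb, with at most 3 and 4 counts in a library, were at or near the floor of 3. Tigar, with 4 to 19 counts, was tested in 7 alternatives, where its log2 fold change was 0.56 to 1.15 and its smallest unadjusted p was 0.166 (edgeR).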

Other observations

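Txnip, an inhibitor of glucose uptake whose transcription is known to follow the level of glucose metabolites, was tested in the glucose sensing list and is named here after its values were seen. It measured 381, 628 and 521 CPM in CBM and 322, 704 and 1060 CPM in EBM, and its log2 fold change was 0.45 (edgeR adjusted p = 0.892).

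Hkdc1, a hexokinase-like gene outside the list, measured 12.2, 0.158 and 4.32 CPM in CBM and 10.9, 8.80 and 0.193 CPM in EBM. In CBM replicate 2 and EBM replicate 3 it therefore had about as few counts as the floor of 3, while the other libraries held it at 4.32 CPM or more. Its log2 fold change between regions was 0.26 (edgeR adjusted p = 0.989).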
